A study of Homo sapiens with 24 samples.

Results

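The mitochondrially encoded mRNAs examined here were MT-ATP6, MT-ATP8, MT-CO2 and MT-ND4L, the 4 genes of 19798 in the conversion table whose symbols start with MT-, the prefix of genes carried by the mitochondrial chromosome. They were chosen by that origin and not by any measured value, although earlier results of these data were known at the time. MT-ATP6 and MT-ATP8 encode subunits of the ATP synthase (complex V), MT-CO2 encodes a catalytic subunit of cytochrome c oxidase (complex IV), and MT-ND4L encodes a membrane subunit of NADH dehydrogenase (complex I). Of the 13 mRNAs that mitochondrial DNA encodes in humans, these 4 were analysed here, and the 2 mitochondrial rRNAs were not analysed here.

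All libraries came from HEK293T cells, a human embryonic kidney line. The cells carried a lentiCRISPR_v2 construct with a guide against CNOT3 (sgCNOT3) or a non-targeting guide (sgNT) and were selected with puromycin for 4 days. CNOT3 is a subunit of CCR4-NOT, the deadenylase that shortens the poly(A) tails of mRNAs in the cytoplasm. Both genotypes received 75 µM 4-thiouridine over 24 h, the medium being renewed at 3 h intervals, and were then chased with 10 mM uridine triphosphate (UTP) for 0, 1, 2, 4, 8 or 12 h before 3′ end sequencing with thiol alkylation (SLAM-seq). Each of the 12 groups of genotype and chase time held 2 libraries, 24 in all, and every group shared the cell line, the vector, the label and the chase medium. The study used 2 guides per genotype, but the labels do not say which library carried which guide. They also do not say whether the 2 libraries of a group came from separate cultures, so the p-values below measure the spread between libraries, which may be technical. For slopes over chase time, that spread also holds any departure of the group means from a straight line.

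The measured quantity was the share of T-to-C conversions of each gene, given here in percent. An alkylated 4-thiouridine is read as C where the genome has T, so the share is high for RNA made during labelling and falls as that RNA is replaced by unlabelled RNA. It is not an expression level, so neither the cell type nor the loss of CNOT3 could be checked with it: CNOT3 itself spanned 11.9% to 81.0% in sgCNOT3 libraries and 2.33% to 42.5% in sgNT libraries. The median conversion over the 10731 genes kept for the fits was 35.9% and 32.7% in sgCNOT3 libraries and 35.9% and 32.0% in sgNT libraries at 0 h, and 8.54% and 9.84% in sgCNOT3 libraries against 5.73% and 5.17% in sgNT libraries at 12 h. Replicate 2 of sgCNOT3 at 2 h stood apart, with a median of 18.8% against 29.1% in replicate 1. Read depth is unknown, because the table holds shares without the counts behind them.

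Mitochondrial mRNAs are transcribed inside the organelle from the mitochondrial chromosome as long polycistronic precursors, which are cleaved around the tRNAs that separate most of the genes. The messages are polyadenylated by a mitochondrial poly(A) polymerase, held stable by the LRPPRC and SLIRP proteins, degraded by the SUPV3L1 helicase with the PNPT1 exonuclease, and translated by mitochondrial ribosomes. They therefore do not meet cytoplasmic ribosomes on the way to translation, whereas the mRNAs of their partner subunits, encoded in the nucleus, do.

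The genes lie close together on the same strand of the mitochondrial chromosome (16569 bases in GRCh38, annotated with GENCODE release 44), and each is a single exon that is coding throughout. MT-CO2 occupies MT:7586-8269 (684 bases), MT-ATP8 occupies MT:8366-8572 (207 bases), MT-ATP6 occupies MT:8527-9207 (681 bases) and MT-ND4L occupies MT:10470-10766 (297 bases). The last 100 bases of each gene are shown because the libraries were primed from the poly(A) tail, so reads come mainly from the end of a transcript; capitals mark T, the base at which a conversion can be seen.
MT-CO2: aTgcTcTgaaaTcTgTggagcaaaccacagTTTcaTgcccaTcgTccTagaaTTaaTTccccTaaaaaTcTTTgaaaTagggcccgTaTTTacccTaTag
MT-ATP8: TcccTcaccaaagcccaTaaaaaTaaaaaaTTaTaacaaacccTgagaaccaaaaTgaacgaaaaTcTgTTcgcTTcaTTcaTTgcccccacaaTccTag
MT-ATP6: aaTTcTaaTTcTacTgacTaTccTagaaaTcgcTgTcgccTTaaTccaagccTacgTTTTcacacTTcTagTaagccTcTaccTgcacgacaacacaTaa
MT-ND4L: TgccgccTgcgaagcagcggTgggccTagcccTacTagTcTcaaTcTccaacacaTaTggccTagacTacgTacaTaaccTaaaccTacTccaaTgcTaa
These ends held 29 T in MT-CO2, 21 in MT-ATP8, 29 in MT-ATP6 and 21 in MT-ND4L. MT-ATP8 and MT-ATP6 are read from one bicistronic message and overlap over 46 bases, printed with the MT-ATP6 start codon and the MT-ATP8 stop codon in capitals.
MT-ATP8 and MT-ATP6 overlap, MT:8527-8572: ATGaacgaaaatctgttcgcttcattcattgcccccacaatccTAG
MT-ND4L is likewise the first reading frame of a message shared with MT-ND4 and overlaps it by 7 bases. The end of MT-ATP8 and the end of MT-ND4L therefore lie inside a transcript, whereas those of MT-CO2 and MT-ATP6 lie near transcript ends. For MT-ATP8 and MT-ND4L the bases printed above are thus not those next to the poly(A) tail. How reads in the overlaps were assigned is not given in the sources used here, so MT-ATP8 and MT-ATP6 are not fully separate measurements. Of the codons CGG, AGG and CGA, which the study examined in cytoplasmic mRNAs, CGG and AGG occur in none of the 4 reading frames, and CGA occurs 3 times in MT-CO2, 2 times in MT-ATP6 and in neither MT-ATP8 nor MT-ND4L.

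All 4 mitochondrial mRNAs had higher conversion in sgCNOT3 than in sgNT libraries, and the gap was present at every chase time. In each of the 4 genes both sgCNOT3 libraries lay above both sgNT libraries at all 6 times. The same held for 362 of the 10731 kept genes, or 3.37%. Among the 4, the ratio of mean conversion, sgCNOT3 over sgNT, lay between 1.41 and 2.12 at 0 h, between 3.10 and 4.04 at 4 h and between 3.94 and 8.30 at 12 h. In sgCNOT3 libraries the 2 h values of each gene overlapped its 0 h values, and in sgNT libraries they lay below them. How many other genes did so was not counted. None of the 4 sgNT declines at 2 h passed the test across all genes (limma, adjusted p = 0.10 to 0.33). The median log2 change of all kept genes from 0 h to 2 h was -0.41 in sgCNOT3 and -0.44 in sgNT cells.

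**Figure D1:**
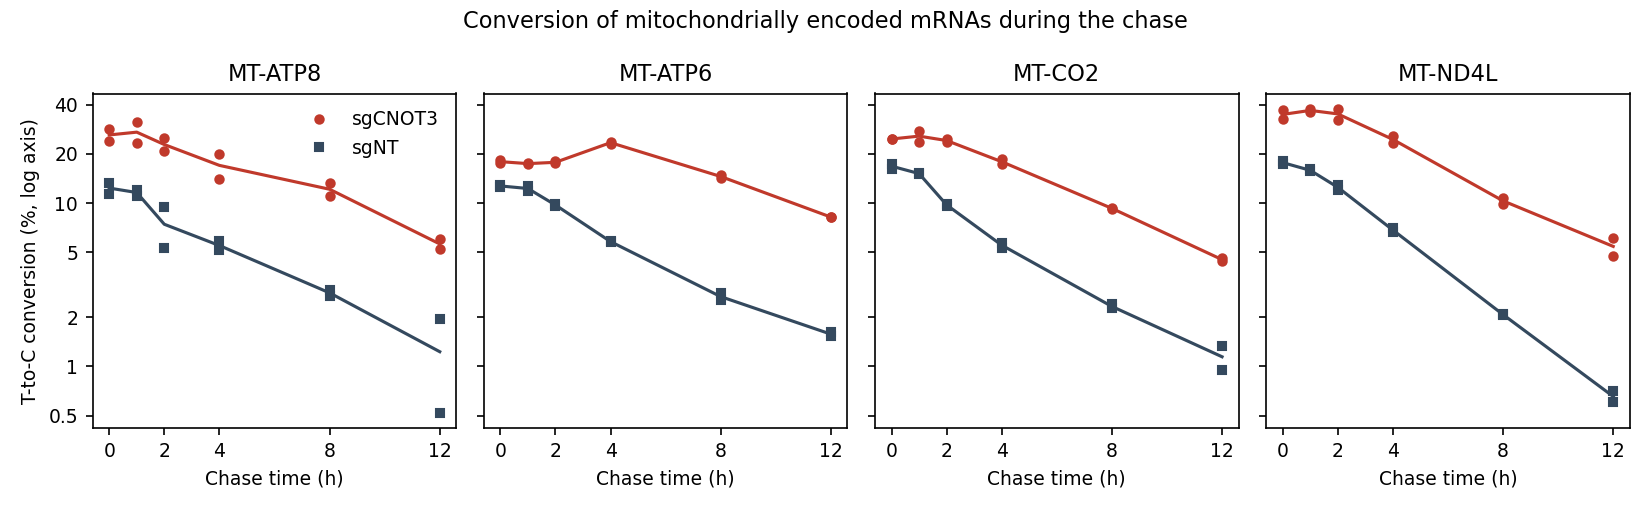
T-to-C conversion in percent (log axis) against chase time in h for each mitochondrial mRNA. Points are single libraries (2 per genotype and time), lines join the group means, and the sgCNOT3 points (red circles) lie above the sgNT points (dark squares) at all 6 times in all 4 genes.

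MT-ATP6, whose protein forms part of the proton channel of ATP synthase, had the least usual time course. At 0 h its conversion was 18.3% and 17.6% in sgCNOT3 libraries, against 13.0% and 12.5% in sgNT libraries. At 2 h it was 17.5% and 18.0% in sgCNOT3 libraries, against 9.58% and 9.91% in sgNT libraries. At 4 h it was 23.8% and 23.2% in sgCNOT3 libraries, against 5.76% and 5.87% in sgNT libraries. The 4 h values were the highest of the whole sgCNOT3 course, in both libraries, while the sgNT values had already dropped below those of 2 h. The mean at 4 h was 131% of the 0 h mean in sgCNOT3 cells and 45.6% of it in sgNT cells. At 12 h 8.18% and 8.25% remained in sgCNOT3 libraries, against 1.53% and 1.63% in sgNT libraries, a ratio of means of 5.21. The remaining values were 17.4% and 17.5% in sgCNOT3 libraries against 11.9% and 12.7% in sgNT libraries at 1 h, and 14.3% and 14.8% in sgCNOT3 libraries against 2.54% and 2.81% in sgNT libraries at 8 h. The genotypes overlapped at no time. Within sgCNOT3 the 4 h value exceeded the 0 h value by 0.38 ± 0.21 on the log2 scale (SE), which did not pass the test across all genes (limma, adjusted p = 0.18), nor did its excess over the 2 h value (0.39 ± 0.21, adjusted p = 0.40).

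MT-ATP8, a small membrane subunit of the same enzyme read from the same message, was the least precisely measured. At 0 h its conversion was 28.4% and 24.0% in sgCNOT3 libraries, against 13.3% and 11.4% in sgNT libraries. At 4 h it was 20.03% and 14.0% in sgCNOT3 libraries, against 5.16% and 5.84% in sgNT libraries. At 12 h it was 5.23% and 6.03% in sgCNOT3 libraries, against 1.94% and 0.52% in sgNT libraries. The genotypes did not overlap, but the sgNT libraries at 12 h differed from each other by more than for any of the other 3 genes, and at 2 h sgCNOT3 libraries held 24.9% and 20.8% against 9.51% and 5.34% in sgNT libraries. The value was 23.2% and 31.2% in sgCNOT3 libraries against 11.1% and 12.1% in sgNT libraries at 1 h. It was 10.997% and 13.3% in sgCNOT3 libraries against 2.94% and 2.71% in sgNT libraries at 8 h. At 4 h MT-ATP8 held no such excess over its start as MT-ATP6, with 65.1% of the 0 h mean left in sgCNOT3 cells and 44.5% in sgNT cells.

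MT-CO2, which receives electrons from cytochrome c in complex IV, showed a delay followed by a decline in sgCNOT3 cells. Its conversion at 0 h was 24.7% in both sgCNOT3 libraries, against 17.5% and 16.2% in sgNT libraries. At 2 h it was 24.7% and 23.7% in sgCNOT3 libraries, against 9.67% and 9.85% in sgNT libraries. At 12 h it was 4.63% and 4.39% in sgCNOT3 libraries, against 0.953% and 1.34% in sgNT libraries. The 1 h values were 23.8% and 27.6% in sgCNOT3 libraries and 15.0% and 15.3% in sgNT libraries, and by 2 h the mean was 97.9% of its start in sgCNOT3 cells and 57.9% in sgNT cells. At 4 h MT-CO2 stood at 17.3% and 18.6% in sgCNOT3 libraries, against 5.32% and 5.74% in sgNT libraries, and at 8 h at 9.19% and 9.39% in sgCNOT3 libraries, against 2.40% and 2.27% in sgNT libraries. The genotypes did not overlap, and the ratio of means grew to 2.48 by 2 h and 3.94 by 12 h.

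MT-ND4L, a core membrane subunit of complex I, had the highest mean conversion of the 4 in sgCNOT3 cells up to 4 h. At 0 h it was 37.3% and 32.6% in sgCNOT3 libraries, against 18.0% and 17.4% in sgNT libraries. At 2 h it was 37.9% and 32.5% in sgCNOT3 libraries, against 12.0% and 13.0% in sgNT libraries. At 12 h it was 6.14% and 4.73% in sgCNOT3 libraries, against 0.607% and 0.703% in sgNT libraries, the lowest group mean of any mitochondrial mRNA in the series. The ratio of means at 12 h, 8.30, was the widest of the 4. At 1 h MT-ND4L stood at 37.6% and 36.4% in sgCNOT3 libraries, against 16.1% and 15.6% in sgNT libraries. At 4 h it was 23.4% and 25.7% in sgCNOT3 libraries, against 6.69% and 7.00% in sgNT libraries. At 8 h it was 10.8% and 9.91% in sgCNOT3 libraries, against 2.07% and 2.08% in sgNT libraries. The sgCNOT3 libraries overlapped those of 0 h up to 2 h. The sgNT libraries at 1 h lay below those of 0 h, as they did for MT-CO2. That change in MT-ND4L, -0.15 ± 0.21 in log2 conversion (SE), did not pass in limma, where 0 of the 10731 kept genes were called lower.

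The order of the 4 genes differed between the genotypes and changed with time. At 0 h the means in sgCNOT3 cells ran from MT-ND4L (34.9% ± 3.3) through MT-ATP8 (26.2% ± 3.1) and MT-CO2 (24.7% ± 0.042) to MT-ATP6 (18.0% ± 0.53), and those in sgNT cells from MT-ND4L (17.7% ± 0.44) through MT-CO2 (16.8% ± 0.87) and MT-ATP6 (12.7% ± 0.34) to MT-ATP8 (12.4% ± 1.3) (SD, n = 2 each). MT-ATP8 and MT-CO2 overlapped in sgCNOT3 libraries at 0 h, as did MT-ND4L and MT-CO2, and MT-ATP6 and MT-ATP8, in sgNT libraries. At 12 h MT-ATP6 had the highest mean in both genotypes, 8.21% ± 0.054 in sgCNOT3 cells and 1.58% ± 0.070 in sgNT cells, and MT-CO2 in sgCNOT3 cells (4.51% ± 0.16) and MT-ND4L in sgNT cells (0.655% ± 0.068) the lowest. The sgNT libraries of MT-ATP6 and MT-ATP8 overlapped at that time.

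Relative to its own start, each mRNA kept more label in sgCNOT3 than in sgNT cells from 2 h on. At 2 h between 87.4% (MT-ATP8) and 101% (MT-ND4L) of the 0 h mean was left in sgCNOT3 cells, against 57.9% (MT-CO2) to 76.4% (MT-ATP6) in sgNT cells. At 12 h the shares were 15.6% (MT-ND4L) to 45.8% (MT-ATP6) in sgCNOT3 cells, against 3.70% (MT-ND4L) to 12.4% (MT-ATP6) in sgNT cells. Measured within each genotype with limma, none of the 4 had fallen significantly by 4 h in sgCNOT3 cells, where 25.7% of all kept genes had, and 3 of the 4 had in sgNT cells, where 12.1% had. The sgNT declines were -1.55 ± 0.22 for MT-CO2, -1.33 ± 0.21 for MT-ND4L and -1.09 ± 0.21 for MT-ATP6 in log2 conversion (SE), with adjusted p-values of 9.2e-04, 0.0019 and 0.0049. MT-ATP8 was -1.12 ± 0.41 (adjusted p = 0.087). By 12 h all 4 had fallen in both genotypes, as had 71.6% of kept genes in sgCNOT3 and 85.5% in sgNT cells.

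**Figure D2:**
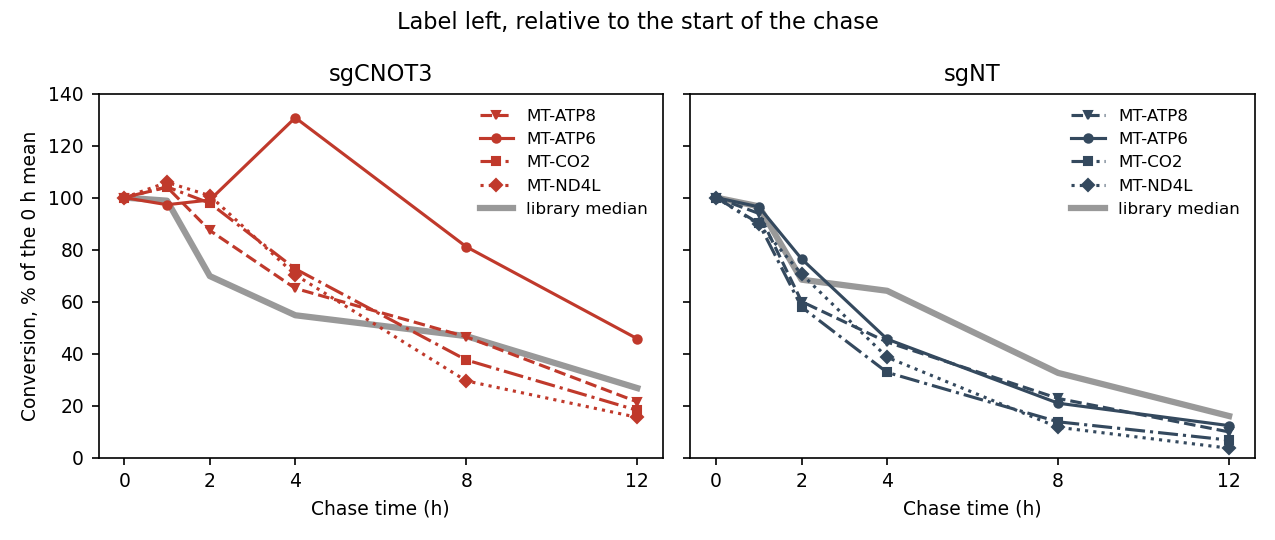
Group mean conversion as a percentage of the 0 h mean of the same genotype, against chase time in h, for the 4 mitochondrial mRNAs and for the mean of the library medians (grey). In sgCNOT3 cells the mRNAs lie above the grey line at 2 h and 4 h and MT-ATP6 reaches 131% at 4 h, whereas in sgNT cells all 4 run below it from 4 h.

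The comparison of genotypes at each chase time was made in one limma fit of the 12 group means, on log2 of the conversion plus 0.34 percentage points, with Benjamini-Hochberg adjustment over all kept genes and a threshold of 0.05. At 0 h MT-ND4L alone was significantly higher (log2 difference 0.96 ± 0.21 SE, adjusted p = 0.016), 1 of 4 beside 0.811% of all genes. The others were at 1.06 ± 0.41 (MT-ATP8), 0.54 ± 0.22 (MT-CO2) and 0.48 ± 0.21 (MT-ATP6), with adjusted p-values between 0.20 and 0.28. At 1 h MT-ND4L again was the one called (1.20 ± 0.21, adjusted p = 0.0064), against 0.923% of all genes. The 0 h call on MT-ND4L was lost without either sgCNOT3 or either sgNT library of that time, when 0 of 4 were called, and the 1 h call likewise without any one library at 1 h.

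From 2 h on all 4 mitochondrial mRNAs were significantly higher in sgCNOT3 cells. At 2 h 4 of 4 were called, beside 1.55% of all genes, with log2 differences of 1.63 ± 0.41 (MT-ATP8), 1.46 ± 0.21 (MT-ND4L), 1.28 ± 0.22 (MT-CO2) and 0.85 ± 0.21 (MT-ATP6) and adjusted p-values of 0.039, 0.0016, 0.0052 and 0.034. The 2 h calls on MT-ATP8 and MT-ATP6 lay close to the threshold, and 2 of 4 were called without any one library of the 0, 1 or 2 h groups or without either sgCNOT3 library at 8 h. Without the sgCNOT3 library at 2 h whose median stood apart, the differences were 1.76 (MT-ATP8), 1.57 (MT-ND4L), 1.31 (MT-CO2) and 0.83 (MT-ATP6), with adjusted p-values of 0.11, 0.0093, 0.036 and 0.13 in limma.

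At 4 h the typical gene did not share this direction. At that time 4 of 4 were higher, beside 2.14% of all genes (230 higher against 573 lower), and the median difference of all genes was -0.16. MT-ATP6 differed by 1.95 ± 0.21 (adjusted p = 9.8e-05), MT-ND4L by 1.79 ± 0.21 (2.1e-04), MT-CO2 by 1.64 ± 0.22 (5.6e-04) and MT-ATP8 by 1.55 ± 0.41 (0.033) in log2 conversion. The MT-ATP8 call at 4 h was lost without any one library of that time. These values placed between 96.7% and 97.6% of kept genes below each of the 4. At 8 h 4 of 4 were higher beside 18.9% of all genes, with differences of 1.85 to 2.31. At 12 h 4 of 4 were higher beside 31.8%, with 2.53 ± 0.21 for MT-ND4L, 2.16 ± 0.21 for MT-ATP6, 2.09 ± 0.41 for MT-ATP8 and 1.72 ± 0.22 for MT-CO2, and a median of 0.65 over all genes. The MT-ATP8 difference was 2.79 without replicate 1 and 1.38 without replicate 2 of sgNT at 12 h. Relative to its size at 0 h, the difference had grown past the threshold by 4 h in 1 of 4 (MT-ATP6), beside 0.308% of all genes, and by 12 h in 3 of 4 (all but MT-ATP8), beside 17.4% of all genes.

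Because the library medians themselves separated late in the chase, the fit was repeated after subtracting each library's median log2 conversion. The 4 h differences then were 2.17 ± 0.29 (MT-ATP6), 2.01 ± 0.29 (MT-ND4L), 1.86 ± 0.32 (MT-CO2) and 1.77 ± 0.41 (MT-ATP8), again 4 of 4 beside 0.746% of all genes, with adjusted p-values of 0.0033, 0.0048, 0.012 and 0.049 (limma). In these centred values the difference was largest at 4 h for each of the 4. At 8 h 4 of 4 were called beside 3.91%, and at 12 h 4 of 4 beside 10.1%, with 12 h differences of 1.00 ± 0.32 (MT-CO2) to 1.81 ± 0.29 (MT-ND4L). At 2 h MT-ND4L was called (1.46 ± 0.29, adjusted p = 0.045), 1 of 4 beside 0.0839%, and none was called at 0 or 1 h.

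**Figure D3:**
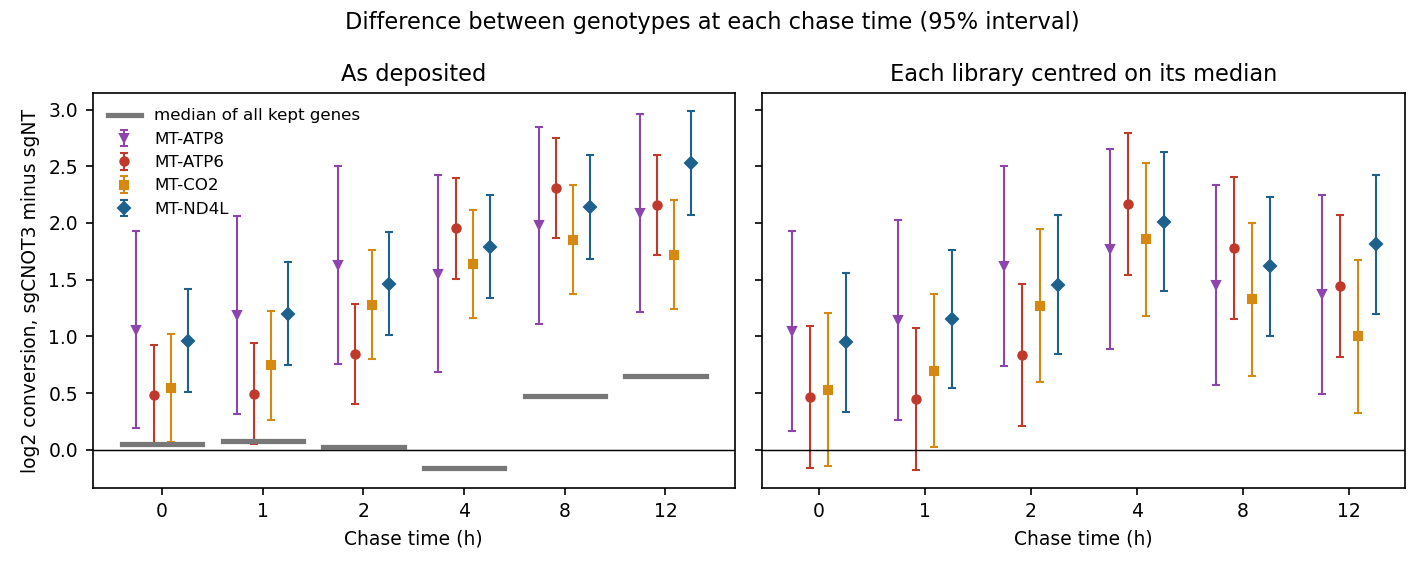
Difference in log2 conversion, sgCNOT3 minus sgNT, at each chase time in h for the 4 mitochondrial mRNAs, with 95% intervals from the limma fit; the left panel uses the values as deposited and the right panel subtracts each library's median. The grey bars give the median of all kept genes, which is -0.16 at 4 h, where the 4 mRNAs lie between 1.55 and 1.95.

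The rank of each mRNA among the kept genes of the same library, which does not depend on the library's scale, moved in the same way. At 0 h the sgCNOT3 libraries placed MT-ND4L at percentiles 49.6 and 53.4, MT-ATP8 at 27.1 and 32.3, MT-CO2 at 24.2 and 28.8 and MT-ATP6 at 13.1 and 13.4, while the sgNT libraries placed all 4 between 5.35 and 14.3. At 4 h MT-ATP6 stood at 60.1 and 70.3 in sgCNOT3 libraries, against 4.93 and 6.03 in sgNT libraries. MT-ND4L reached its highest rank at 2 h, 73.7 and 83.8 in sgCNOT3 libraries, against 14.2 and 16.6 in sgNT libraries. The mitochondrial mRNAs were thus among the genes with the least label in sgNT cells at 4 h and near or above the middle in sgCNOT3 cells. At 12 h the ranks of MT-CO2 overlapped, at 20.1 to 26.4 in sgCNOT3 libraries and 16.5 to 21.2 in sgNT libraries, whereas those of the other 3 did not. How many of all genes had ranks without overlap was not counted. In conversion itself, both sgCNOT3 libraries lay above both sgNT libraries at 12 h in 5573 of the 10731 kept genes.

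**Figure D4:**
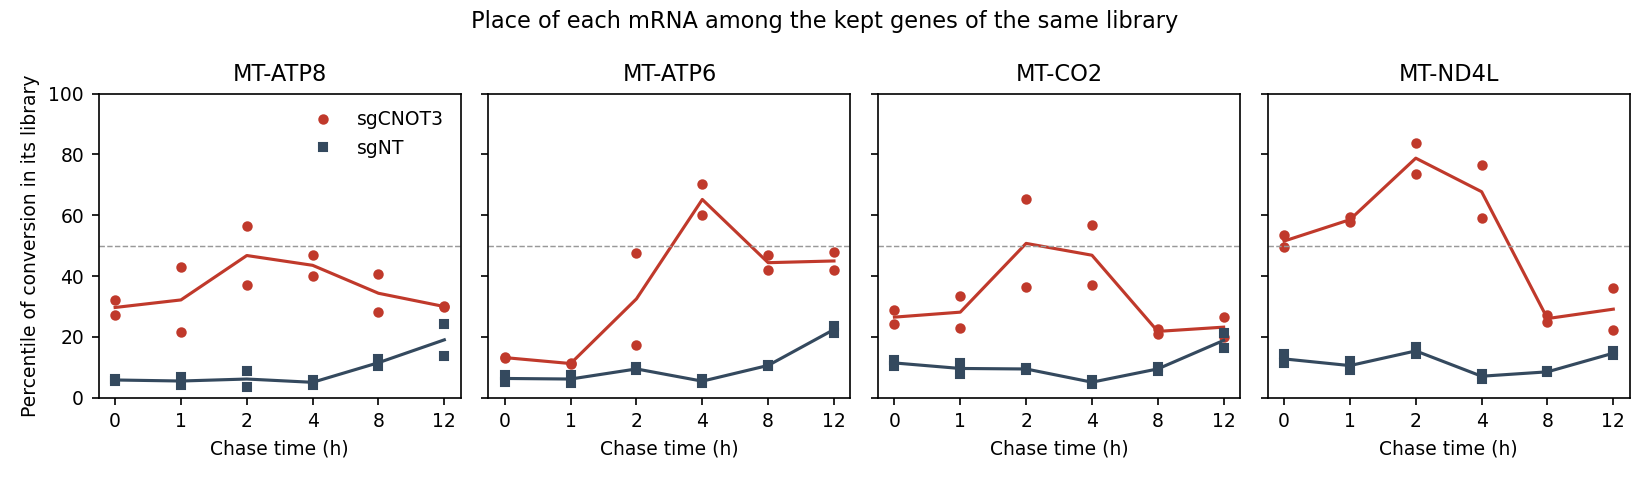
Percentile of each mitochondrial mRNA's conversion among the kept genes of the same library, against chase time in h (evenly spaced). Points are libraries, lines join means and the dashed line is the middle of the distribution; sgNT points stay below 25 and sgCNOT3 points exceed them at every time except for the overlap of MT-CO2 at 12 h.

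The rate of label loss over the whole chase was compared as the genotype by time interaction of log2 conversion. MT-ATP6 changed by -0.086 log2 units per h in sgCNOT3 and -0.25 in sgNT cells, a difference of 0.16 ± 0.029 (SE, adjusted p = 3.7e-04, limma). The difference was 0.12 ± 0.023 for MT-ND4L (adjusted p = 5.8e-04), 0.096 ± 0.026 for MT-CO2 (adjusted p = 0.010) and 0.082 ± 0.035 for MT-ATP8 (adjusted p = 0.10). Thus 3 of 4 declined more slowly in sgCNOT3 cells, beside 21.7% of all genes, whose median difference was 0.058. On the percent scale without a log the direction turned for 3 of 4, at -1.42 percentage points per h for MT-ND4L (adjusted p = 0.0058), -0.89 for MT-ATP8 (adjusted p = 0.037) and -0.60 for MT-CO2 (adjusted p = 0.14), so that MT-ND4L was called in the opposite direction on that scale. How many of all genes were called in that direction in percent was not counted. After subtraction of the library medians 0 of 4 passed, beside 5.46% of all genes: MT-ATP6 was at 0.095 ± 0.039 (adjusted p = 0.11), MT-ND4L at 0.059 ± 0.033, MT-CO2 at 0.030 ± 0.036 and MT-ATP8 at 0.016 ± 0.036 (adjusted p = 0.26 to 0.81). The unadjusted limma p-value was under 0.05 for 1 of the 4 in that centred fit, MT-ATP6. With replicate 1 or replicate 2 of every group left out, 0 of 4 passed, with differences of 0.16 in either case for MT-ATP6. The share of all genes called in those smaller fits is not given here, so that count cannot be set against all genes.

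The early and late parts of the chase were also fitted separately. Over 0 to 4 h the slope difference was 0.39 ± 0.059 for MT-ATP6 (adjusted p = 0.0071, limma), 0.29 ± 0.059 for MT-CO2 (adjusted p = 0.038), 0.21 ± 0.060 for MT-ND4L (adjusted p = 0.13) and 0.13 ± 0.096 for MT-ATP8 (adjusted p = 0.58). These were 2 of 4 beside 0.848% of all genes, whose median was -0.037. With the library medians subtracted, 1 of 4 passed beside 0.466% (MT-ATP6, 0.45 ± 0.096, adjusted p = 0.048). Over 4 to 12 h 0 of 4 passed beside 2.73% of all genes, at 0.01 to 0.092 against a median of 0.10 for all genes, and the 4 mRNAs declined at -0.18 to -0.26 per h in sgCNOT3 and -0.21 to -0.36 per h in sgNT cells. Between 4 h and 12 h the log2 gap between genotypes changed by 0.08 ± 0.32 for MT-CO2 and by 0.21 ± 0.29 for MT-ATP6, with 95% intervals of -0.60 to 0.76 and -0.42 to 0.83, and by 0.74 ± 0.30 for MT-ND4L (adjusted p = 0.094).

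Single-exponential half-lives, fitted to conversion relative to the 0 h mean, were longer in sgCNOT3 cells for all 4. They were 21.7 h in sgCNOT3 and 4.03 h in sgNT cells for MT-ATP6, 6.77 h and 3.56 h for MT-ATP8, 6.67 h and 2.81 h for MT-CO2, and 6.11 h and 3.16 h for MT-ND4L. The MT-ATP6 half-life in sgCNOT3 cells, 19.9 h and 23.9 h by replicate number, was longer than the 12 h chase and near the 24 h limit of the fit. The log2 ratio, computed for each replicate number, was 2.39 and 2.48 for MT-ATP6, 0.77 and 1.12 for MT-ATP8, 1.32 and 1.17 for MT-CO2, and 0.93 and 0.98 for MT-ND4L. Over the 7728 genes with usable fits in both genotypes the median half-life was 7.50 h in sgCNOT3 and 5.80 h in sgNT cells, with a median log2 ratio of 0.19, and the share of those genes with a lower ratio was 99.8% for MT-ATP6, 91.7% for MT-CO2, 84.1% for MT-ND4L and 83.4% for MT-ATP8. A single exponential described the sgCNOT3 courses poorly: the MT-ATP6 values at 4 h lay 0.43 of the 0 h mean above the curve, and those of MT-ND4L lay 0.21 above it at 2 h and 0.10 below it at 12 h. With a free starting value MT-ATP6 came to 15.3 h in sgCNOT3 and 3.68 h in sgNT cells. With every library divided by its median all 4 came to 24 h in sgCNOT3 cells, the longest half-life the fit allowed, against 19.99 h for MT-ATP6, 14.3 h for MT-ATP8, 6.97 h for MT-CO2 and 6.27 h for MT-ND4L in sgNT cells.

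Conversion of the 4 mRNAs was correlated across the 24 libraries, but some nuclear genes were as close to them as they were to each other. Pearson's r of log2 conversion lay between 0.94 and 0.99 for the 6 pairs, and between 0.75 (MT-ATP6 with MT-ND4L) and 0.97 (MT-CO2 with MT-ND4L) once the library median was subtracted. These are descriptions over libraries that share genotype and chase time. MT-CO2 and MT-ND4L were each the closest of all kept genes to the other by centred r. By the same measure MT-ATP6 held place 117 among kept genes for MT-ND4L, and MT-ND4L held place 24 for MT-ATP6. Without centring, MT-ATP6 had a higher r with the nuclear gene FBXL15 (0.97) than with any other mitochondrial mRNA (0.94 to 0.95). The genes outside mitochondrial DNA with the most similar centred course were GET3 (r = 0.88), which delivers tail-anchored proteins to the endoplasmic reticulum, FBXL15, a ubiquitin ligase adaptor, and MRPS2, a mitochondrial ribosomal protein, for MT-ATP6. They were FBXL15 (0.86), the inositol phosphate kinase IP6K1 and the ribonuclease P subunit POP7 for MT-CO2, POP7 (0.88), the zinc finger protein ZNF324 and IP6K1 for MT-ND4L, and the cell cycle inhibitor CDKN1A (0.80), the replication licensing factor CDT1 and the mitochondrial membrane protein CCDC51 for MT-ATP8. In sgCNOT3 libraries the ratio of MT-ATP8 to MT-ATP6 conversion was 1.15 to 1.78 at 0 to 2 h and 0.61 to 0.90 at 4 to 12 h. In sgNT libraries it ranged from 0.32 to 1.27 with no such separation between early and late libraries.

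The mRNAs of the partner subunits encoded in the nucleus were counted beside the mitochondrial ones; the difference between lists was not tested. Among 12 kept nuclear complex IV subunits and 18 kept nuclear complex V subunits, 0 declined more slowly and 0 faster in sgCNOT3 cells, with median slope differences of 0.00073 and 0.011, and among 37 nuclear complex I subunits 7 declined more slowly and 0 faster, with a median of 0.016. The 7 were 18.9% of the complex I list, beside 21.7% of all genes. The median of the mitochondrially encoded mRNAs was 0.11. COX4I1, a regulatory subunit of complex IV, was highest in its list at 0.013 ± 0.021 (adjusted p = 0.70, limma), and ATP5F1D, in the central stalk of ATP synthase, in its own at 0.052 ± 0.054 (adjusted p = 0.52). NDUFV2, an iron-sulfur subunit of complex I, was at 0.094 ± 0.015 (adjusted p = 1.5e-04), and the next in the list, NDUFA10, an accessory subunit, at 0.079 ± 0.029 (adjusted p = 0.052). After subtraction of the library medians 0 of these subunits declined more slowly, while 6 in complex I, 7 in complex IV and 8 in complex V declined faster, beside 6.09% of all genes, among them NDUFAB1, the mitochondrial acyl carrier protein (-0.093, adjusted p = 0.0053), COX7A2L, a supercomplex assembly subunit (-0.090, adjusted p = 0.011), and ATP5MC2, a subunit of the c-ring (-0.077, adjusted p = 0.025).

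The same lists were counted at single chase times. At 4 h 5 of the 37 nuclear complex I subunits were higher and 2 lower, 0 and 1 of the 12 in complex IV, and 4 and 5 of the 18 in complex V, beside 2.14% of all genes higher and 5.34% lower. At 12 h the median log2 difference was 2.12 for the mitochondrially encoded mRNAs, 0.31 for nuclear complex I, 0.06 for complex IV and -0.08 for complex V subunits. At that time 15 and 0, 2 and 1, and 4 and 4 were higher and lower in the 3 lists, beside 31.8% of all genes higher and 2.73% lower. With the nuclear subunits of the 3 complexes used to centre each library, 3 of 4 mitochondrial mRNAs kept a slower decline beside 15.3% of all genes (MT-ATP6 0.14 ± 0.030, MT-ND4L 0.11 ± 0.024 and MT-CO2 0.078 ± 0.027, adjusted p = 0.0023, 0.0039 and 0.0497), and 4 of 4 were higher at 4 h beside 4.01%.

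**Figure D5:**
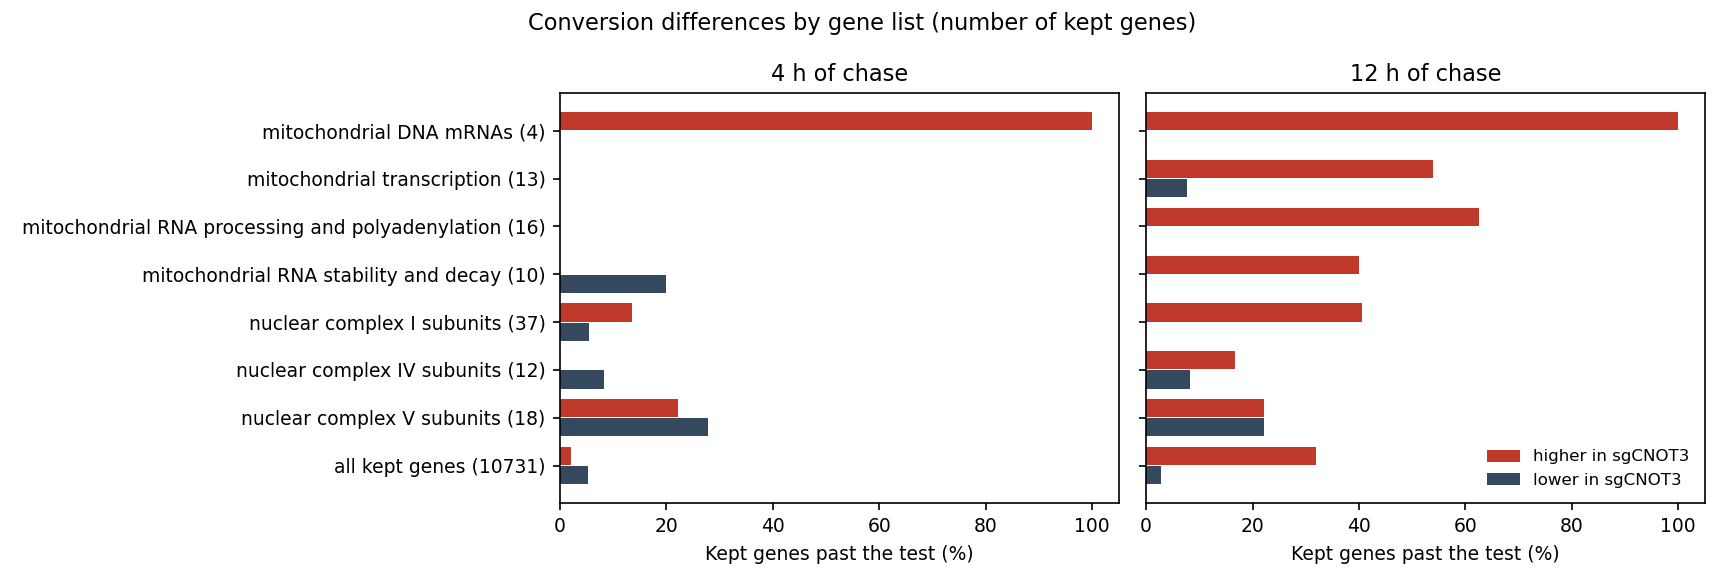
Percentage of kept genes in each list that were higher (red) or lower (dark) in sgCNOT3 than in sgNT cells past an adjusted p of 0.05, at 4 h and 12 h of chase, with the number of kept genes in parentheses. All 4 mitochondrial DNA mRNAs were higher at both times, whereas 0 of 12 nuclear complex IV subunits were higher at 4 h.

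The nuclear genes that make, process and degrade mitochondrial RNA were listed separately. Of 13 kept genes for mitochondrial transcription and genome maintenance 7 declined more slowly in sgCNOT3 cells and 0 faster (median slope difference 0.099), led by TWNK, the mitochondrial DNA helicase (0.25 ± 0.034, adjusted p = 4.1e-05, limma), and MTERF1, a transcription terminator (0.20 ± 0.055, adjusted p = 0.011), with POLG, the DNA polymerase, at -0.00035 ± 0.023 and its accessory subunit POLG2 at -0.23 ± 0.11. Of 16 genes for RNA processing and polyadenylation 9 declined more slowly and 0 faster (median 0.096), led by TRMT10C, a subunit of mitochondrial ribonuclease P (0.24 ± 0.034, adjusted p = 4.1e-05), and FASTKD5, required for cleavage at messages that no tRNA borders (0.23 ± 0.042, adjusted p = 4.8e-04). The tRNA modifier TRIT1 was at -0.0057 ± 0.028 and FASTK at -0.014 ± 0.030. TRMT10C already differed at 0 h, at 39.8% and 30.1% in sgCNOT3 libraries against 63.9% and 61.3% in sgNT libraries. That log2 difference was -0.85 (adjusted p = 0.018, limma). Of the 16 genes 1 was lower and 1 higher at 0 h, beside 4.09% of all genes lower and 0.811% higher. The shares that declined more slowly were 53.8% and 56.2%, beside 21.7% of all genes. After subtraction of the library medians 1 of 13 and 3 of 16 declined more slowly, beside 5.46% of all genes, and MTERF1 was no longer called (adjusted p = 0.087).

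Of 10 genes for mitochondrial RNA stability and decay 2 declined more slowly, or 20% beside 21.7% of all genes, and 0 faster (median 0.045): PDE12, which removes poly(A) from mitochondrial RNA (0.18 ± 0.043, adjusted p = 0.0051, limma), and LRPPRC, which binds and stabilises mitochondrial mRNAs (0.11 ± 0.034, adjusted p = 0.023). After subtraction of the library medians PDE12 alone of the 10 was called, and LRPPRC was at 0.045 (adjusted p = 0.40). REXO2, an oligoribonuclease, was at -0.0091 ± 0.020 and the helicase SUPV3L1 at -0.18 ± 0.12. LRPPRC differed from the mitochondrial mRNAs at the start of the chase. Its conversion at 0 h was 6.10% and 8.02% in sgCNOT3 libraries, against 33.5% and 28.8% in sgNT libraries, a log2 difference of -2.10 (adjusted p = 5.4e-04), where 4.09% of all genes were lower. At 12 h it was 3.06% and 3.64% in sgCNOT3 libraries, against 4.89% and 5.65% in sgNT libraries, a log2 difference of -0.60 that did not pass (adjusted p = 0.11). The 0 h difference had the opposite direction to those of the 4 mRNAs, and whether it bears on them was not tested.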

How the data were processed

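The deposited table gave 1 fraction per gene and library, the T-to-C conversion ratio that the authors computed from QuantSeq 3′ end SLAM-seq reads; bcl2fastq and GRCh38 are named in the submitters' processing notes, and the definition of the ratio (reads or T positions) is not given in the sources used here. Ratios were turned into percent and no per-gene counts were used, so depth and counting error are unknown. The fits used the 10731 of 19798 genes whose ratio exceeded 0 in each of the 4 libraries at 0 h and in 20 or more of the 24. Log2 of the percent plus 0.34 (1% of the 0 h median) was fitted with limma 3.58.1 in R 4.3.3 with a mean-variance trend, either as genotype by time slopes or as 12 group means, with Benjamini-Hochberg adjustment over all kept genes and a threshold of 0.05. Folds on this scale understate changes of values near 0. Half-lives were single exponentials (scipy 1.17.1) limited to 24 h. A gene was named if it was a member, was 1 of the 3 most similar outside genes by centred correlation, or was among the 2 highest and 2 lowest slope differences of a list. The members and lists were chosen with earlier results of these data known. Positions were those of GENCODE release 44 (GRCh38), which shared 4 of 4 gene identifiers with the table, and sequences from the GRCh38 chromosome. The scripts were tested on simulated data, with 100 of 10731 genes changed by each of 2 slope differences. The slope fit recovered 25% of differences of 0.1 log2 units per h and 57% of those of 0.2. All other genes were simulated without a slope difference, whereas 21.7% of genes were called slower in the data. The adjusted threshold was therefore stricter in the simulation, and its recovery may be lower than in the data. Slope differences of that size can go uncalled, but how often they do in these data was not tested. Alternatives covered the pseudocount, filter, centring, scale, trend, chase times, replicate block and leaving out libraries; the separate fits of 4 to 12 h, the centred fits of 0 to 4 and 4 to 12 h, the changes of the difference between times, the list counts by time after centring and the changes within a genotype were added after seeing the data.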

Additional observations from a re-analysis of the deposited data

Results flagged for a closer look

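The genotype difference was compared between chase times as a change of the log2 difference, sgCNOT3 minus sgNT, tested in limma across all kept genes. For MT-ATP6 the difference grew by 1.47 ± 0.29 between 0 h and 4 h (SE, adjusted p = 0.0499), a change called higher for 0.308% of all genes. Both sgCNOT3 libraries at 4 h were above both at 0 h, and both sgNT libraries were below. TRMT10C showed the same arrangement, and how many other genes did so was not counted. Between 0 h and 12 h it grew by 1.68 ± 0.29 for MT-ATP6, by 1.57 ± 0.30 for MT-ND4L and by 1.17 ± 0.32 for MT-CO2 (adjusted p = 0.0012, 0.0022 and 0.019), beside 17.4% of all genes, with a median of 0.62 over all genes. MT-ATP8 changed by 1.03 ± 0.57 (adjusted p = 0.26). After subtraction of the library medians none of these 4 changes passed the test, with values of 1.70 for MT-ATP6 at 4 h and 0.97 (MT-ATP6), 0.86 (MT-ND4L) and 0.47 (MT-CO2) at 12 h (adjusted p = 0.13 to 0.58).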

How the results depend on the processing

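The number of the 4 mRNAs with a slower decline was 3 as reported, beside 21.7% of all genes. It was 1 beside 17.2% with a pseudocount of 5% of the 0 h median, and 2 beside 12.1% without the filter on low values (MT-CO2 adjusted p = 0.062, limma). It was 0 beside 5.46% after centring on library medians and 0 beside 6.52% on the percent scale without a log. That 6.52% holds slower declines only, and the share of all genes called faster in percent was not counted. With 1 slope per genotype and replicate number it was 0, and 0 genes of all tested were called (2686 at an unadjusted p under 0.05). It was 0 beside 2.73% over 4 to 12 h, 1 beside 0.466% over 0 to 4 h centred and 0 beside 0.270% over 4 to 12 h centred. When libraries were left out it was 0 to 4 (4 without replicate 1 of sgNT at 12 h, 0 without either replicate number). The shares of all genes called with libraries left out are not given here. Slope differences turned negative on the percent scale, at -0.89 (MT-ATP8), -0.60 (MT-CO2) and -1.42 (MT-ND4L) percentage points per h, with MT-ND4L and MT-ATP8 past the threshold in that direction (adjusted p = 0.0058 and 0.037, limma), a scale on which the same fractional loss is a steeper slope from a higher start, and over 4 to 12 h centred, at -0.091 (MT-ATP6), -0.050 (MT-ATP8), -0.11 (MT-CO2) and -0.025 (MT-ND4L), where the cause was not tested. The number higher at 0 h, 1 as reported, was 0 without the filter, 0 centred, 4 in percent and 3 without the variance trend, and 0 to 1 with libraries left out; at 1 h, 1 as reported, it was 3 with the 5% pseudocount, 0 centred, 4 in percent, 3 without the trend and 0 to 2 with libraries left out; at 2 h, 4 as reported, it was 2 with a pseudocount of 0.2%, 2 without the filter, 1 centred and 2 to 4 with libraries left out; at 4 h, 4 as reported, it was 3 with the 0.2% pseudocount and 3 without the filter (MT-ATP8 adjusted p = 0.061 and 0.082) and 3 to 4 with libraries left out; at 12 h it was 1 in percent. The calls at 8 h held under every alternative run. At single chase times the share of all genes called was not computed for most of these alternatives. Changes in those counts therefore cannot be set against all genes. The log2 half-life ratio was also computed as a log-linear fit, with a free start, over 0 to 8 h and with libraries divided by their median. In that order it was 1.52, 2.05, 2.57 and 0.26 for MT-ATP6, 0.54, 1.08, 1.47 and 1.78 for MT-CO2 and 0.60, 0.78, 1.10 and 1.94 for MT-ND4L. For MT-ATP8 it was 0.54 as a log-linear fit. The ratios after division by the median rest on sgCNOT3 half-lives at the 24 h limit. With libraries left out the ratio was 2.17 to 2.58 for MT-ATP6, 1.17 to 1.33 for MT-CO2, 0.82 to 1.10 for MT-ND4L and 0.73 to 1.15 for MT-ATP8. The upper end for MT-ATP6, 2.58, was set by the same limit. The slope of the library medians, 0.066 per h higher in sgCNOT3 (exact permutation test, two-sided p = 0.036), was 0.056 over 0 to 8 h, 0.11 without the filter and 0.052 to 0.079 with 1 replicate number left out, none of which passed. Replicate numbers did not pair the libraries (correlation of deviations between genotypes -0.038 to 0.021 over 6 times); a replicate block gave 3 mRNAs with a slower decline and changed no count of calls. Without read counts, the depth behind values near 0, such as the sgNT values at 12 h, is unknown.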
